A study of Mus musculus with 2 samples.

Results

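Immature Car1-positive erythroid progenitors are the cells of mouse bone marrow that already carry RNA of carbonic anhydrase 1 (Car1) but hardly any RNA of later red cell genes. They were chosen by the measured levels of 14 genes in each cell, in CP10k (UMIs per 10000 UMIs of the cell, a UMI being the tag that marks 1 captured RNA molecule). A cell was a member with Car1 at 5 CP10k or more and Cpox, Rhd and Ermap together under 2 CP10k. Cells that expressed other lineages were left out, at a summed level of 10 CP10k for 5 megakaryocyte genes (Pf4, Itga2b, Cavin2, Treml1, Rab27b), 50 CP10k for Mpo and Elane, and 5 CP10k for the mast cell genes Cpa3, Ms4a2 and Fcer1a. This gave 1061 members of 11006 cells, 443 of 5526 in the wild-type library and 618 of 5480 in the knock-in library. The values of these genes are therefore a description only.

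Droplet 3′ single-cell RNA sequencing was made of bone marrow cells sorted as Lin- Kit+, a population of stem and progenitor cells. There was 1 library of wild-type mice and 1 of mice with a GATA-1 mutation knocked in, named 2RA in the study's title, and the study set out to compare their cell populations and gene regulation. The labels used here give no further detail of the allele, and neither age, sex, strain nor the number of mice. With 1 library per genotype no difference has a replicate check or a test, and all intervals are 95% intervals that cover counting error alone.

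Erythroid commitment begins when a progenitor that depends on the transcription factor GATA2 turns to its relative GATA1, which binds GATA motifs and silences Gata2. GATA1 works with the cofactor FOG1 (the product of Zfpm1) and with the factor KLF1 to switch on genes of heme, the membrane skeleton and globin. The earliest committed cells divide in response to Kit ligand, glucocorticoids and, later, erythropoietin.

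Of 7471 barcodes in wild type and 6640 in the knock-in, 74.0% and 82.5% were kept as cells. More barcodes of wild type than of the knock-in, 23.0% against 11.4%, exceeded the limit of 10% mitochondrial UMIs. The part of this in the differences below was not tested. The median cell had 10003 UMIs in wild type and 5831 in the knock-in, so wild type is the deeper library. The members were shallower than their libraries, with medians of 4912 and 3273.5 UMIs and 1813 and 1388.5 genes. Their summed UMIs were nearly the same, 2640463 and 2644758. Of the barcodes, 10 occurred in both libraries, and 0 of these were members.

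The members were a larger share of the knock-in library. They made up 8.02% of wild-type cells (exact binomial interval 7.31% to 8.76%) and 11.3% of knock-in cells (10.5% to 12.1%). The Cpox, Rhd and Ermap limit depends on depth, since 1 UMI in a cell of fewer than 5000 UMIs already exceeds it. After the other steps of the rule it removed 1688 wild-type cells with a median of 19987 UMIs and 1949 knock-in cells with a median of 13616 UMIs. With every cell thinned to 2000 UMIs before the rule was applied, the shares were 17.2% (16.2% to 18.2%) and 21.3% (20.2% to 22.4%). At equal depth the share was thus also higher in the knock-in, by a log2 ratio of 0.31 against 0.49 with all UMIs. The thinned rule takes largely different cells, since of its 949 wild-type and 1165 knock-in cells 365 and 506 were members with all UMIs. Among cells with at least 5000 UMIs the log2 ratio was 0.19.

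4 other groups of cells from the same libraries were used for comparison. Intermediate Car1-positive cells met the same rule with Cpox, Rhd and Ermap from 2 to under 10 CP10k (1347 wild-type and 1671 knock-in cells), and late Car1-positive cells had 10 CP10k or more (341 and 278 cells). Car1-negative cells had Car1 under 1 CP10k, the same exclusions and Cpox, Rhd and Ermap under 2 CP10k (933 and 1263 cells). Myeloid cells had Mpo and Elane at 50 CP10k or more and Car1 under 5 CP10k. The myeloid cells made up 26.9% of the wild-type library (25.7% to 28.1%) and 9.58% of the knock-in library (8.81% to 10.4%), so the shares of the other groups are shares of a differently composed sort.

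**Figure D1:**
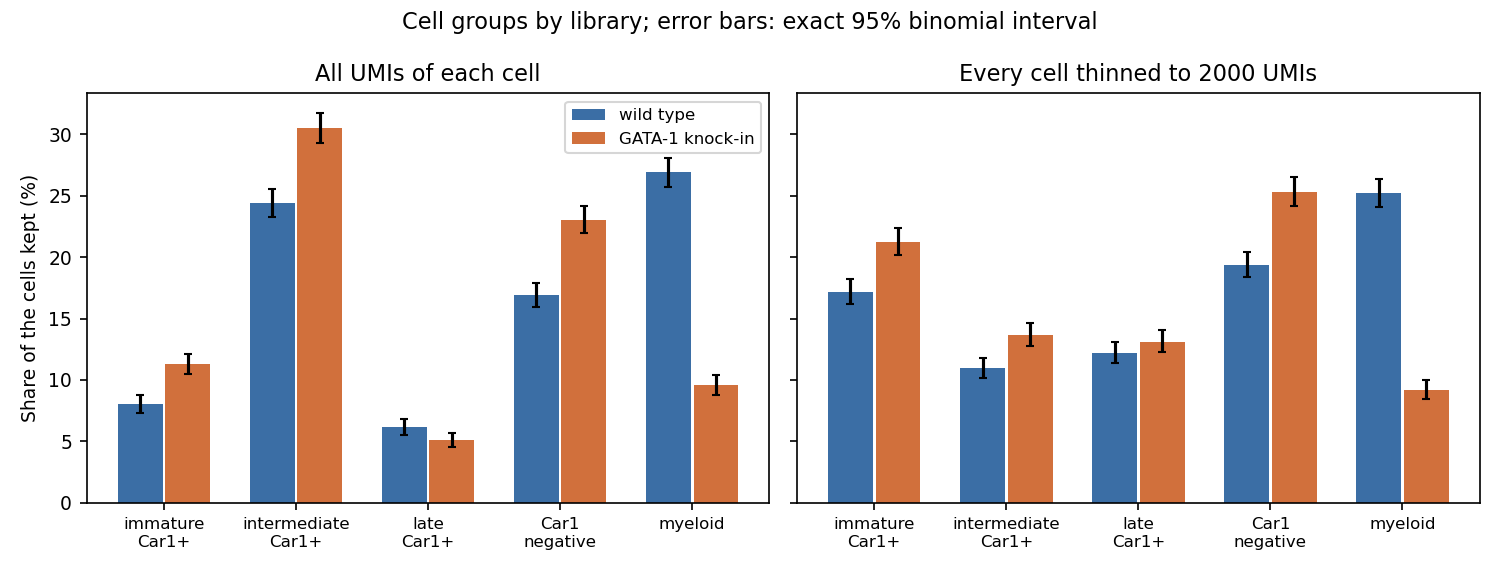
Share of each library's cells (percent, vertical axis) in the 5 cell groups, with all UMIs of each cell (left) and with every cell thinned to 2000 UMIs (right). Bars show the share and error bars the exact 95% binomial interval. Immature Car1-positive cells are the larger share in the knock-in in both panels, 8.02% against 11.3% and 17.2% against 21.3%.

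Just inside the Car1 limit, at 5 to under 6 CP10k, lay 26 wild-type and 29 knock-in members, and just outside it, at 4 to under 5 CP10k, 44 and 83 cells. At the other limit, 109 and 105 members had Cpox, Rhd and Ermap at 1 to under 2 CP10k, and 145 and 174 cells lay at 2 to under 3 CP10k. Gata2 stood at 157 and 264 CPM (UMIs per 1000000 summed UMIs) just inside that limit and at 164 and 203 CPM just outside it in wild type and knock-in, so no step in Gata2 marks that boundary in wild type. The members are thus a range of measured levels. No UMI of Cpox, Rhd or Ermap was seen in 322 wild-type and 508 knock-in members.

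The label fits the levels of Gata2 and Csrp3, which the rule did not use, but Cd34 only in part. Gata2, the GATA factor of stem and early progenitor cells, stood at 241 CPM in wild-type members and 356 CPM in knock-in members. It was lower in all 4 comparison groups of the same library, at 48.8 and 103 CPM in intermediate, 15.6 and 54.3 CPM in late, 103 and 144 CPM in Car1-negative and 13.2 and 21.2 CPM in myeloid cells. Csrp3, which encodes a LIM domain protein best known from muscle, also had its highest level of the 5 groups in the members of both libraries. Cd34, a surface antigen of stem and progenitor cells, was low, at 41.3 and 29.5 CPM against 350 and 329 CPM in Car1-negative cells, though above the 2.34 and 1.23 CPM of late Car1-positive cells. In cells thinned to 2000 UMIs, a Cd34 UMI was seen in 6.32% of wild-type and 4.69% of knock-in members and in 46.2% and 40.9% of Car1-negative cells. Most thinned members thus had no Cd34 UMI, while Gata2 was at its highest level of the 5 groups. Stem and multipotent cell markers, a list described below, summed to 2166 and 2437 CPM in members. Their sums were 2332 and 2896 CPM in Car1-negative but 364 and 516 CPM in intermediate cells. Early erythroid commitment genes, also a list below, summed to 4221 and 3185 CPM in members. Their sums were 1245 and 1000 CPM in Car1-negative and 5899 and 5602 CPM in intermediate cells. The Car1-positive cells that the megakaryocyte and mast cell limits removed were not compared. An order of these groups in time was not tested.

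Gata1, the gene named in the mutation (ENSMUSG00000031162, minus strand of chromosome X from 7959260 to 7978071 in mm10), had 331 UMIs in the members of each library, 125 CPM in both (log2 ratio 0.00, interval -0.23 to 0.22). The counts do not show the mutation itself, so this level checks no label. The level of Gata1 in intermediate cells was 142 and 136 CPM and in late cells 158 and 163 CPM. In both libraries the interval of Gata1 in members overlapped that of intermediate cells and lay below that of late cells. Klf1 was lower in members than in intermediate and late cells of both libraries. It stood at 147 and 234 CPM in members, 268 and 303 CPM in intermediate and 315 and 352 CPM in late cells.

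**Figure D2:**
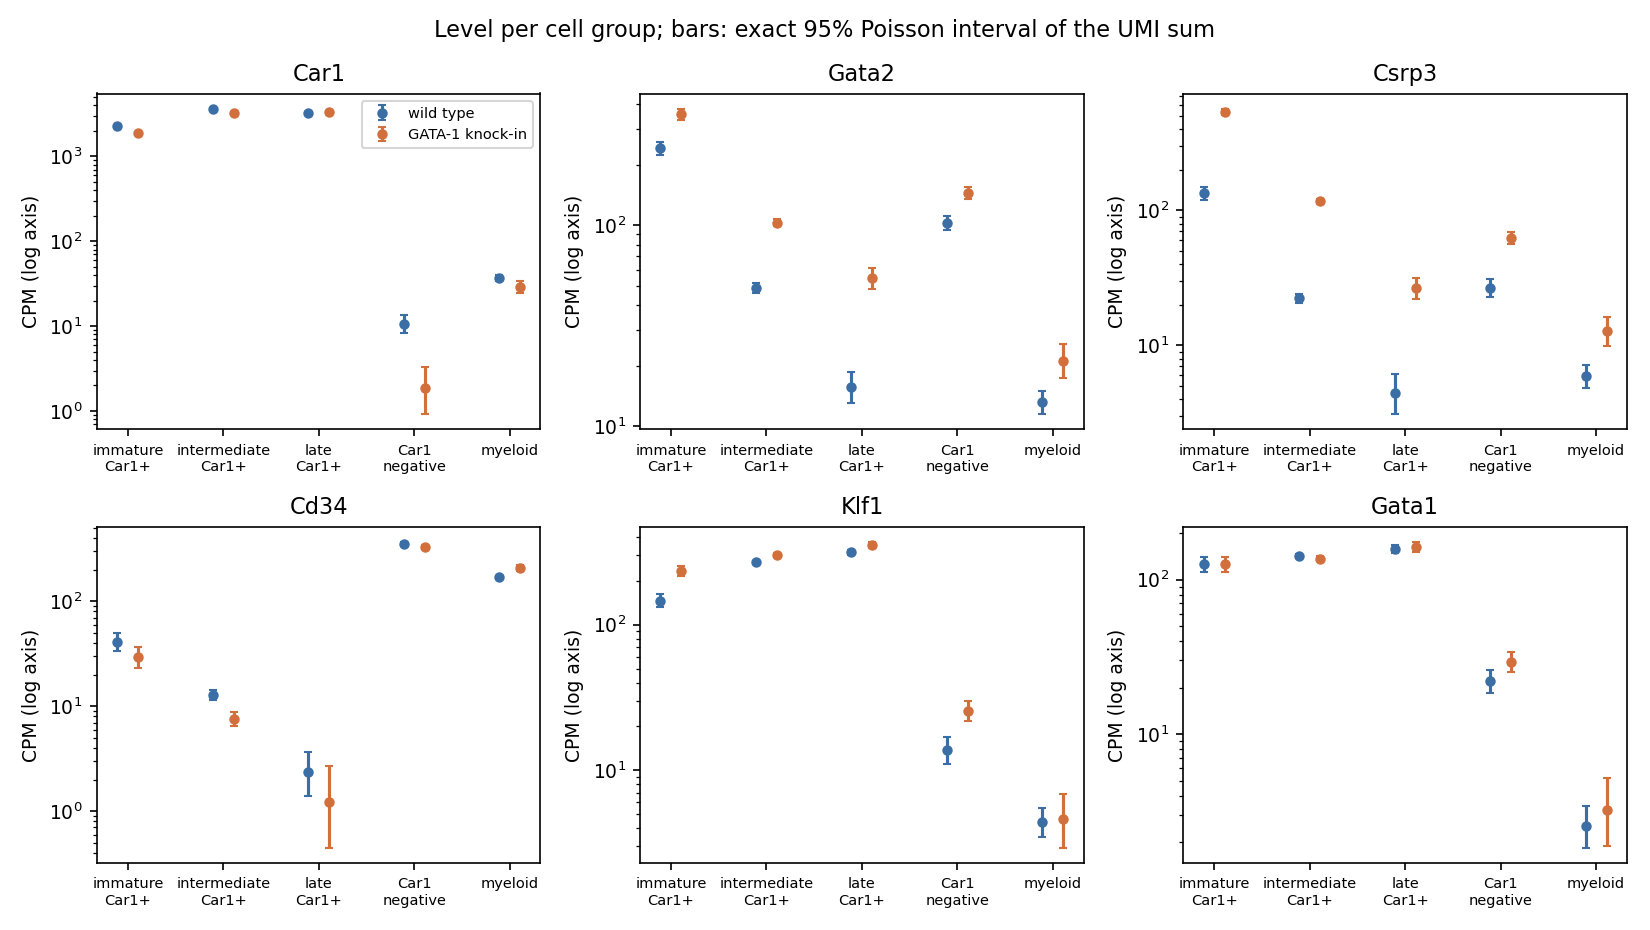
Level of 6 genes (CPM, log axis) in the 5 cell groups of wild type (blue) and knock-in (orange); points are summed UMIs in CPM and bars the exact 95% Poisson interval. Gata2 and Csrp3 are highest in immature Car1-positive cells of both libraries, Cd34 is highest in Car1-negative cells (350 and 329 CPM), and Gata1 lies at 125 CPM in the immature cells of both.

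Among genes with at least 100 UMIs in knock-in members, Csrp3 had the largest ratio in favour of the knock-in. Wild-type members had 354 UMIs (134 CPM) and knock-in members 1424 UMIs (538 CPM), a 4.02-fold higher level (interval 3.57 to 4.53). In thinned cells a Csrp3 UMI was seen in 20.3% of wild-type members (16.7% to 24.4%) and 64.1% of knock-in members. The same share was 0.538% and 2.10% in myeloid cells, well below the members' shares in both libraries. The part of free RNA in these shares was not tested. The difference was spread over many cells, since 173 wild-type and 487 knock-in members had a UMI without thinning. The median knock-in member had 4.16 CP10k, and the median wild-type member had 0.

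The higher level of Csrp3 in the knock-in ran through all 5 groups of cells. Its log2 ratio of knock-in to wild type was 2.01 (1.84 to 2.18) in members, 2.39 in intermediate, 2.58 in late, 1.24 in Car1-negative and 1.11 in myeloid cells. The differences between these ratios were not tested. The largest, in late cells, rests on a low wild-type level of 36 UMIs. That was 4.43 CPM against 26.4 CPM in the knock-in, while myeloid cells had 5.93 and 12.8 CPM. The gene (ENSMUSG00000030470) lies on chromosome 7 from 48830398 to 48848033 on the minus strand (mm10).

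Gata2 (chromosome 6, 88193891 to 88207032, plus strand) had 636 UMIs in wild-type and 942 UMIs in knock-in members, a 1.48-fold higher level (1.34 to 1.64). A Gata2 UMI was seen in 41.1% of thinned wild-type and 52.8% of thinned knock-in members, against 2.36% and 4.19% of myeloid cells. The log2 ratio was 0.56 in members, 1.08 in intermediate and 1.80 in late Car1-positive cells, and 0.49 in Car1-negative cells. It was 0.69 in myeloid cells, at low levels of 13.2 and 21.2 CPM, so Gata2 was higher in the knock-in in every group. Late cells had the lowest Gata2 of the 3 Car1-positive groups in both libraries. Csrp3 and Gata2 were not tied to the same knock-in cells: a Csrp3 UMI was seen in 64.1% of the 326 thinned members with Gata2 and in 64.0% of the 292 without. In wild type the shares were 23.1% of 182 and 18.4% of 261 members, with overlapping intervals.

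The promoters of the genes these results turn on are shown to let the reader see which of them hold a GATA motif near the start. Each run is the stretch before the RefSeq start site nearest the gene's start in GENCODE, 250 bases or up to where the GENCODE gene begins, read 5′ to 3′ on the gene's own strand (RefSeq, GRCm38.p6). Capitals mark AGATAA or TGATAA on either strand, searched in the 250 bases before the start.
Csrp3, chr7:48848052-48848301, minus strand: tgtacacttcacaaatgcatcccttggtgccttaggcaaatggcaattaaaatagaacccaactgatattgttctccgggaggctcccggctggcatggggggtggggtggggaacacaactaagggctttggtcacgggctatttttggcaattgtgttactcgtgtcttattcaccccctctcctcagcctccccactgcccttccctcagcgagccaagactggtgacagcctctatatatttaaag
Gata2, chr6:88193641-88193890, plus strand: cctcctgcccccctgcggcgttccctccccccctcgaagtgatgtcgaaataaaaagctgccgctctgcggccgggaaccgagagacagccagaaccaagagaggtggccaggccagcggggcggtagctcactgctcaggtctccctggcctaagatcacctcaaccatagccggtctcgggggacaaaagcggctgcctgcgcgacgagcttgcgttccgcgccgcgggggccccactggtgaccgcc
Klf1, chr8:84901732-84901927, plus strand: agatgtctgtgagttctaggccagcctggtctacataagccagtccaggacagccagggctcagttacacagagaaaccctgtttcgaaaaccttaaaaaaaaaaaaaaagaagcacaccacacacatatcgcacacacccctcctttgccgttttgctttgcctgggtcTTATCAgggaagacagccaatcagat
Apoe, chr7:19699189-19699438, minus strand: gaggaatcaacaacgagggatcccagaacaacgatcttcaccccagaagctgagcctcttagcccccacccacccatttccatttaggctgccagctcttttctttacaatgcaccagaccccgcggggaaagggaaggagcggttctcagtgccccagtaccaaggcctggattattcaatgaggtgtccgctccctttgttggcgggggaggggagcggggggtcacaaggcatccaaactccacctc

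Of these 4 runs, only that of Klf1 holds the motif, as TGATAA on the opposite strand, starting 80 bases before the RefSeq start. The motif was found in 5451 of the 32841 promoter windows of the table (16.6%). It was found in 642 of the 6065 measured genes with a promoter there (10.6%), counting a gene with any of its start sites. Among the erythroid transcription factors described below it was found in 6 of 14 (42.9%), among early erythroid commitment genes in 2 of 13 (15.4%), among GATA2-phase factors in 1 of 11 (9.09%) and among heme synthesis genes in 1 of 9 (11.1%). It was found among genes at least 2-fold higher in the knock-in in 10 of 44 (22.7%) and among those at least 2-fold lower in 6 of 83 (7.23%). A match of these letters is a description of the window. Car1 had no entry.

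In all, 7643 genes had at least 50 UMIs over the members of both libraries, and their median log2 ratio was 0.04. At least 2-fold higher in the knock-in were 61 of them (0.798%) and at least 2-fold lower 118 (1.54%), and 2.34% were at least 2-fold apart in either direction. Higher by any amount were 54.4%. In the intermediate and late Car1-positive cells 4.17% and 3.67% of genes were 2-fold apart, and in Car1-negative and myeloid cells 2.26% and 2.48%. These groups differ in summed UMIs and in the genes that pass the limit, so the percentages are not ranked.

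**Figure D3:**
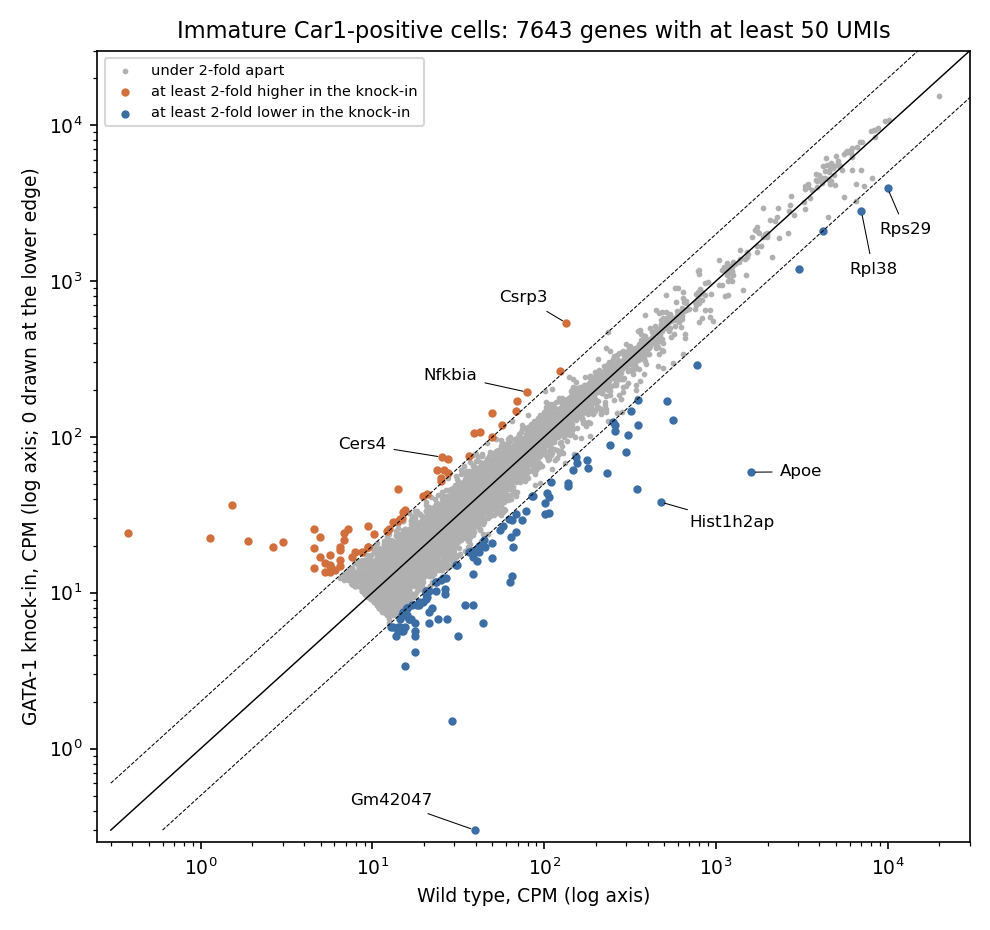
Level of 7643 genes in the summed members of wild type (horizontal) and knock-in (vertical), in CPM on log axes; each point is a gene, the solid line marks equal levels and the dashed lines a 2-fold difference. Csrp3 (134 against 538 CPM) stands above the band, and Apoe, Hist1h2ap and Gm42047 (39.4 against 0 CPM, drawn at the lower edge) stand below it.

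Among the 12 genes farthest above no difference, several differed in Car1-positive cells more than in the other groups, without a test of that. Nfkbia, the inhibitor that holds NF-kB in the cytoplasm, had 79.5 CPM in wild-type members and 194 CPM in knock-in members (log2 ratio 1.28, 1.05 to 1.52). Its log2 ratio was 1.68 in intermediate and 1.85 in late Car1-positive cells but 0.22 in Car1-negative and -0.12 in myeloid cells. Lmo4, a LIM-only cofactor, stood at 68.9 and 147 CPM in members (1.09), with ratios of 1.77 and 2.50 in intermediate and late cells and 0.20 and 0.29 in Car1-negative and myeloid cells.

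Anxa2, a calcium-binding membrane protein, stood at 27.7 and 71.8 CPM in members (1.38), with ratios of 1.01 and 2.30 in intermediate and late cells and -0.20 in Car1-negative cells. Cd69, a surface activation antigen, stood at 42.0 and 108 CPM in members (1.36) and had a ratio of -0.38 in Car1-negative cells. The Cd69 difference was absent from the deeper members: with cells of at least 5000 UMIs alone its log2 ratio was -0.10. These 232 wild-type and 450 knock-in members under 5000 UMIs thus carried it.

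Other genes far above no difference were higher in the knock-in in every group of cells. Cers4, a ceramide synthase, stood at 25.4 and 74.1 CPM in members (log2 ratio 1.55) and had ratios from 0.88 in Car1-negative to 3.26 in late cells. Ifi203, of the interferon-inducible Ifi200 family, stood at 39.0 and 107 CPM (1.45), and its relatives in the family can share reads. Slamf1, a receptor of the SLAM family, stood at 23.9 and 61.3 CPM (1.36), and Fut8, which adds core fucose to glycoproteins, at 69.7 and 169 CPM (1.27). Gm6133 and Gm9493, 2 gene models known by number only, had ratios of 1.72 and 1.10 in members and of 0.90 or more in the other groups. Larger ratios than that of Csrp3 were found at lower counts, in genes chosen here after their values were seen. Trnp1 had 1 UMI in wild-type and 64 UMIs in knock-in members (interval of the log2 ratio 3.47 to 11.32), Inpp4b, a phosphoinositide phosphatase, 4 and 97 UMIs (4.60, 3.19 to 6.50), and Hes1, a target of Notch, 12 and 68 UMIs (2.50, 1.60 to 3.52).

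On the other side stood Apoe, apolipoprotein E, which was seen in 429 of the 443 wild-type members and 77 of the 618 knock-in members. Wild-type members had 4231 UMIs (1602 CPM) and knock-in members 157 UMIs (59.4 CPM), a 27.0-fold lower level in the knock-in. In thinned cells an Apoe UMI was seen in 90.5% of wild-type and 10.0% of knock-in members. The members had the highest wild-type level of the 5 groups, above 339 CPM in intermediate, 62.7 CPM in late, 443 CPM in Car1-negative and 70.8 CPM in myeloid cells. The gene was lower in the knock-in in all of them, by log2 ratios of -3.12 to -6.62.

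The lincRNA Gm42047 had 104 UMIs in wild-type and 0 in knock-in members. Against a floor of 3 UMIs in the knock-in members it was 34.7-fold lower there (log2 ratio -5.12), a value set by the floor. The interval of the log2 ratio reached up to -4.79. Gm42047 had 0 UMIs in every other knock-in group as well. Def8, on chromosome 8, stood at 62.9 and 11.7 CPM (log2 ratio -2.42) and differed less in myeloid cells (-0.55). Slc1a5, a glutamine transporter, stood at 38.3 and 8.32 CPM (-2.20), and Bst2, the interferon-induced membrane protein tetherin, at 107 and 32.5 CPM (-1.72).

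Several of the lower genes differed by nearly the same ratio in all cells, erythroid or not. Atp5k, a small subunit of ATP synthase, had log2 ratios from -1.53 to -1.62 over the 5 groups. Gstp1, a glutathione transferase, stood at 44.3 and 6.43 CPM in members (-2.79), and Usp50 at 64.8 and 12.9 CPM (-2.33). Over the other 4 groups the ratio of Usp50 ran from -2.51 to -2.84. Gm10076 stood at 347 and 46.1 CPM, and the histone genes Hist1h2ap and Hist1h2ae at 475 and 38.2 CPM and at 300 and 79.8 CPM. Reads of these last 3 and of Gstp1 can be split among near-identical copies, so their values are uncertain.

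Short transcripts were overrepresented among the lower genes. Of 68 measured genes with a longest annotated transcript under 600 bases, 18 (26.5%) were at least 2-fold lower in knock-in members, against 21 of 2810 genes (0.747%) at 4000 bases or more. Of 82 measured ribosomal protein genes 54 were higher and 28 lower, with a median log2 ratio of 0.14. Rpl35, Rpl38, Rps29 and Rps27 had ratios of -1.37, -1.33, -1.34 and -1.01 in members. Rpl38 had ratios from -1.27 to -1.46 and Rps29 from -1.29 to -1.40 over the other 4 groups. Of 13 mitochondrially encoded genes, 2 were at least 2-fold lower, mt-Nd3 (774 and 287 CPM) and mt-Nd4l (258 and 109 CPM). The part of library making in these differences was not tested.

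The erythroid transcription factors were mostly similar, with a few higher in the knock-in. Of 18 measured, 10 were higher and 8 lower, 1 by at least 2-fold (Lmo4), with a median log2 ratio of 0.12 against 0.04 over all genes. The interval lay above 0 for 6 and below 0 for 1, where it did so for 11.7% and 8.56% of all genes. Klf1, the factor of the erythroid program, had 147 CPM in wild-type members and 234 CPM in knock-in members, 1.60-fold higher (1.41 to 1.82). In intermediate and late cells its log2 ratio was 0.17 and 0.16, against 0.68 in members and 0.89 in Car1-negative cells, where its level was low (13.8 and 25.5 CPM). Zfpm1, which encodes the GATA1 cofactor FOG1, stood at 153 and 225 CPM (0.55), and Zfp36l2, an RNA-binding protein of early erythroid self-renewal, at 799 and 1180 CPM (0.56). Bcl11a, a repressor of embryonic and fetal globin genes, stood at 273 and 343 CPM (0.33). The LIM adaptor Lmo2 went the other way, at 387 and 308 CPM (-0.33), and Cbfa2t3 stood at 262 and 261 CPM.

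Factors of the GATA2 phase did not move as a group. Of 14 measured, 8 had higher and 6 lower levels, none by 2-fold, and the median was 0.09, ranging from -0.30 to 0.24 over the alternative settings. Besides Gata2, the interval lay above 0 for Myb, a factor of progenitor growth (646 and 849 CPM, log2 ratio 0.39), for Hhex (83.3 and 112 CPM, 0.43) and for Meis1 (76.5 and 95.7 CPM, 0.32). Kit, the receptor used in the sort, stood at 210 and 201 CPM and Myc at 209 and 225 CPM. Cd34 had a ratio of -0.49 (-0.92 to -0.05).

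Of 18 measured genes of early erythroid commitment 11 had higher and 7 lower levels, with a median of 0.13 that kept its sign in 10 of 12 settings and ranged down to -0.13. Csrp3 was at least 2-fold higher, and Apoe and the metallothionein Mt2 (68.6 and 32.1 CPM, log2 ratio -1.09) at least 2-fold lower. Car2, the other red cell carbonic anhydrase, stood at 864 and 975 CPM (0.17), and Blvrb, biliverdin reductase B, at 444 and 424 CPM (-0.07). The heme synthesis list had 3 genes higher and 8 lower of 11, with a median of -0.08. It included Tmem14c, a porphyrin importer (242 and 185 CPM, -0.39), and the pathway enzymes Urod (111 and 83.9 CPM, -0.40) and Alad (102 and 97.9 CPM, -0.06).

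Iron and membrane genes were close to even. Of 14 iron handling genes 7 were higher, with a median of 0.01, and the ferritin chains Fth1 (1514 and 1543 CPM) and Ftl1 (1079 and 1178 CPM) differed by log2 ratios of 0.03 and 0.13. Of 9 red cell membrane genes 3 were higher, with a median of -0.08 that kept its sign in 7 of 12 settings and ranged up to 0.25. Of 16 erythroid surface and cytokine receptors 8 were higher, and Cd47, the antigen that protects red cells from phagocytosis, stood at 583 and 733 CPM (0.33). The water channel Aqp1 stood at 206 and 195 CPM (-0.08).

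The globin list had 1 measured gene, Hbb-bs, with 8 UMIs in wild-type and 56 UMIs in knock-in members. In thinned cells a Hbb-bs UMI was seen in 0.451% of wild-type and 4.53% of knock-in members. In myeloid cells of the knock-in, which should lack the gene, it was seen in 4.57%. The share in knock-in members was thus not above that of myeloid cells. In wild-type myeloid cells it was 0.202%, below the 0.451% of wild-type members, with overlapping intervals. The part of free RNA in these globin UMIs was not tested.

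Signalling genes downstream of Kit and the erythropoietin receptor differed little. Of 11 measured, 7 were higher, none by 2-fold, with a median of 0.16 that reached -0.08 in 1 setting. Pim1, a survival kinase induced by STAT5, stood at 80.7 and 139 CPM (log2 ratio 0.78, 0.54 to 1.03). Stat5a itself stood at 77.3 and 72.6 CPM (-0.09). Of 9 genes of early erythroid self-renewal and glucocorticoid response 6 were higher, with a median of 0.36 that stayed between 0.24 and 0.44 in all settings run. Tsc22d3, a glucocorticoid-induced leucine zipper protein, had 268 and 524 UMIs (log2 ratio 0.96), and at a ratio of 0.26 among members with at least 5000 UMIs. Dusp1, a phosphatase that glucocorticoids also induce, was lower, at 259 and 120 CPM (-1.11).

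Of 11 measured stem and multipotent cell markers 7 were higher and 4 lower, none by 2-fold, with a median of 0.32. Sox4 stood at 574 and 897 CPM (log2 ratio 0.65), Txnip at 362 and 487 CPM (0.43) and Angpt1 at 108 and 158 CPM (0.55). Ifitm1 went the other way, at 795 and 543 CPM (-0.55). Among members with at least 5000 UMIs the ratios of Sox4 and Angpt1 were -0.06 and -0.07, and the list's median kept its sign in 10 of 12 settings and ranged down to -0.28. Depth moves with these results, and its part in them was not tested.

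**Figure D4:**
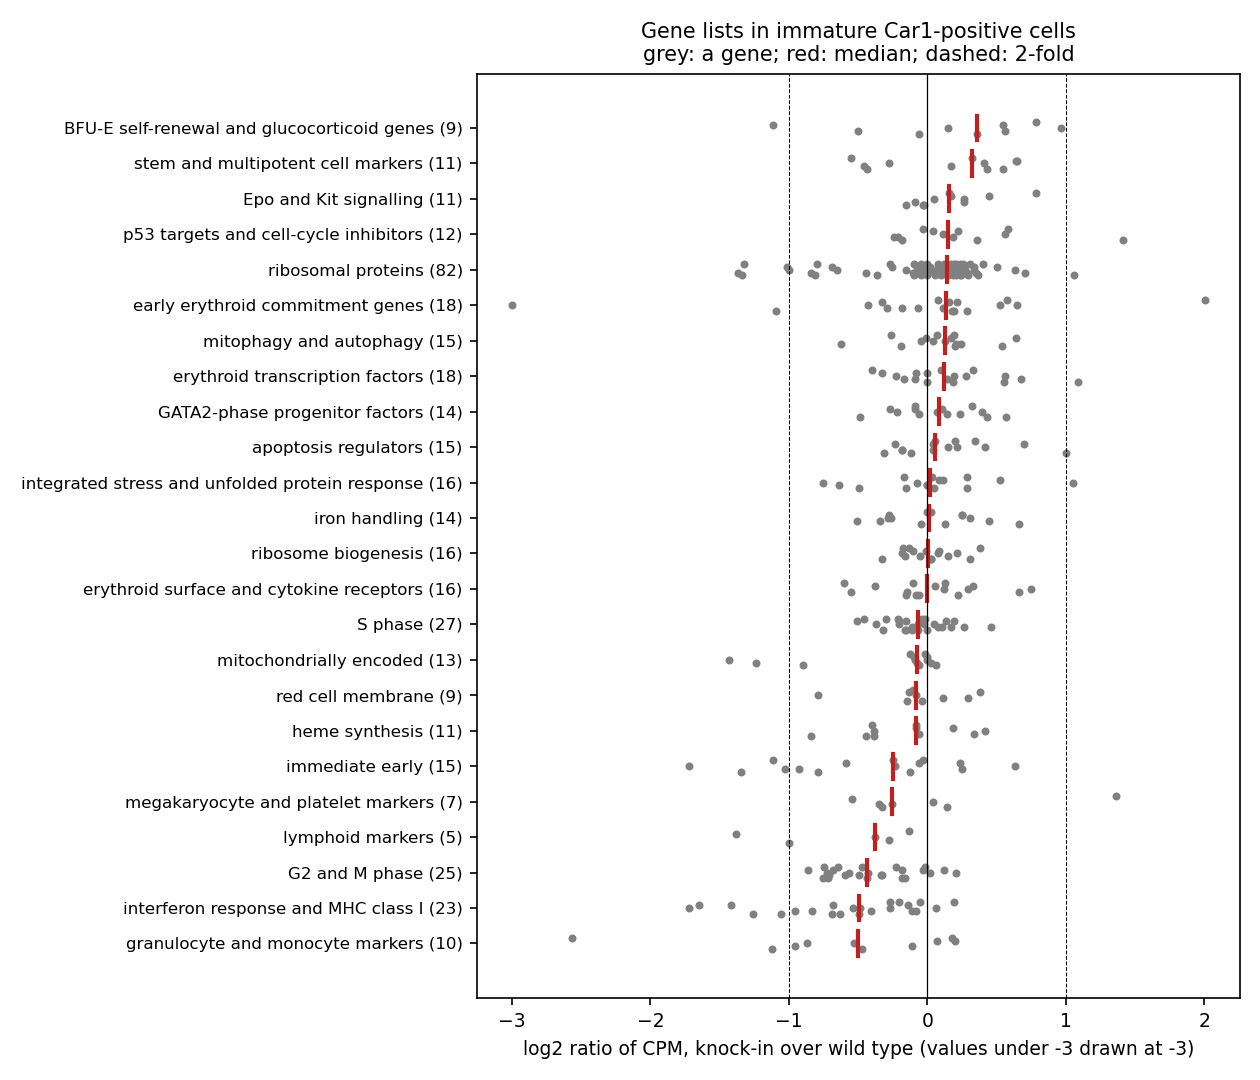
Log2 ratio of CPM, knock-in over wild type, in immature Car1-positive cells for the measured genes of 24 lists (grey points, number measured in brackets) with each list's median (red bar); dashed lines mark 2-fold. Medians run from -0.50 for granulocyte and monocyte markers to 0.36 for early self-renewal and glucocorticoid genes.

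Most genes of G2 and M phase had lower levels in knock-in members, while S phase genes and the share of cells with Mki67 were close to even. Of 25 measured G2 and M phase genes 22 were lower and 3 higher, none by 2-fold, with a median of -0.44 that ranged from -0.59 to -0.11 over the settings. The interval lay below 0 for 14 of the 25, against 8.56% of all genes. The list was about as low in Car1-negative cells, where all 27 measured genes were lower, with a median of -0.46. Its median was -0.20 in intermediate, -0.02 in late and 0.07 in myeloid cells. Cenpa stood at 155 and 115 CPM (log2 ratio -0.44), Top2a at 165 and 132 CPM (-0.33), Mki67 at 143 and 126 CPM (-0.19) and Cks2 at 406 and 401 CPM (-0.02). The share of thinned members with a Mki67 UMI was 10.6% in wild type and 10.4% in the knock-in. It was 35.9% and 29.3% in intermediate and 52.2% and 53.2% in late Car1-positive cells, without a test of these differences. The median thinned member had 1 UMI of the G2 and M phase list in both libraries. Of 27 S phase genes 8 had higher and 19 lower levels, with a median of -0.07 that ranged from -0.26 to 0.28 over the settings, and an interval below 0 for 4 and above 0 for 1.

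Most genes of the interferon response and of MHC class I had lower levels in knock-in members. Of 23 measured 21 were lower and 2 higher, 5 of them lower by at least 2-fold (1.54% of all genes), with a median of -0.50 that stayed between -0.67 and -0.38 in all settings run. The interval lay below 0 for 13 of the 23, against 8.56% of all genes. The list was lower in the other groups as well. Its median was -0.46 in intermediate, -0.15 in late, -0.30 in Car1-negative and -0.18 in myeloid cells, and the differences between groups were not tested. B2m, the light chain of MHC class I, stood at 1125 and 797 CPM (log2 ratio -0.50), and the heavy chains H2-K1 at 1173 and 807 CPM (-0.54) and H2-D1 at 861 and 648 CPM (-0.41). Rtp4, an interferon-induced gene, stood at 39.4 and 18.9 CPM (-1.06). Psmb8, a subunit of the immunoproteasome, stood at 340 and 355 CPM (0.06). The interferon-inducible Ifi203 given above is not on this list and was higher.

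Most immediate early genes, which are induced within minutes of stimulation or handling, had lower levels as well. Of 15 measured 12 were lower and 3 higher, 4 of them lower by at least 2-fold (1.54% of all genes), with a median of -0.25 that ranged from -0.64 to -0.04 over the settings. Fos stood at 957 and 554 CPM (log2 ratio -0.79) and Fosb at 562 and 296 CPM (-0.92), while Jun (1212 and 1031 CPM, -0.23) and Jund (1178 and 994 CPM, -0.25) differed less. Zfp36, Klf2 and Klf4 had ratios of -1.34, -1.03 and -1.72. Among members with at least 5000 UMIs the ratios were larger, at -1.46 for Fos, -1.88 for Dusp1, -2.78 for Zfp36 and -3.28 for Klf2. The list was not lower throughout: its median was 0.01 in both intermediate and late cells, -0.17 in Car1-negative and -0.55 in myeloid cells, although Fos itself had ratios from -0.55 to -0.83 in these groups.

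Stress and death genes showed single differences and no shift of the lists. Of 15 apoptosis regulators 10 were higher, with a median of 0.06. Cycs, cytochrome c, stood at 186 and 206 CPM, Mcl1 at 161 and 142 CPM and Bax at 107 and 110 CPM. Among 12 measured p53 targets and inhibitors of the cell cycle, 8 had higher levels (median 0.15), and Cdkn1b, which encodes the inhibitor p27, stood at 73.9 and 94.5 CPM (log2 ratio 0.36). Of 16 genes of the integrated stress and unfolded protein response 8 were higher, with a median of 0.02, and Ddit4, an inhibitor of mTORC1, had 66 and 137 UMIs (1.05). Of 16 ribosome biogenesis genes 8 were higher, and of 15 mitophagy and autophagy genes 10, with medians of 0.01 and 0.13.

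RNA of granulocyte and monocyte markers was present in the members, although the rule capped Mpo and Elane. Of 10 measured granulocyte and monocyte markers 7 were lower in the knock-in and 3 higher, with a median of -0.50, which ranged from -1.29 to 0.08 over the settings. Their summed level was 2123 CPM in wild-type and 1733 CPM in knock-in members, against 657 and 354 CPM in intermediate, 198 and 96.1 CPM in late and 4511 and 4131 CPM in Car1-negative cells. Plac8, the gene of the list with the most UMIs and the largest part of these sums in members, differed little, at 1247 and 1155 CPM (log2 ratio -0.11). Nkg7 stood at 183 and 207 CPM (0.18, -0.002 to 0.36). Prtn3, a neutrophil serine protease, stood at 321 and 147 CPM (-1.12), Ctsg at 150 and 77.1 CPM (-0.96) and Ly6c2 at 31.4 and 5.29 CPM (-2.57). In thinned cells Prtn3 was seen in 42.2% and 24.0% of members, and in 15.0% and 5.40% of late Car1-positive cells, which should lack it. The lower values move with the smaller share of myeloid cells in the knock-in library, 9.58% against 26.9%, and the part of free RNA in them was not tested.

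Of 4 measured mast cell and basophil markers all 4 were higher in knock-in members, with a median of 0.91. Il1rl1, the receptor of interleukin 33, stood at 27.7 and 58.2 CPM (log2 ratio 1.07), Fcer1g at 34.1 and 65.4 CPM (0.94), Hdc, which makes histamine, at 11.7 and 21.6 CPM (0.88) and Srgn at 1109 and 1228 CPM (0.15). Among members with at least 5000 UMIs the ratios of Fcer1g and Hdc were 0.36 and 0.13. The mast cell limit of the rule removed 11 wild-type and 33 knock-in Car1-positive cells. Of 7 megakaryocyte and platelet markers 3 were higher, with a median of -0.26, and of 5 lymphoid markers all 5 were lower, with a median of -0.38. Of 3 measured MHC class II genes 2 were higher, with a median of 0.22, and no eosinophil granule gene reached 50 UMIs.

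The members were also described by their level of Car1, which is a value the rule used, so these ranges are a description and not a tested order of maturation. In 4 ranges of Car1, from 5, 10, 20 and 40 CP10k upwards, lay 95, 152, 151 and 45 wild-type and 185, 246, 162 and 25 knock-in members. The median member had 18.4 CP10k of Car1 in wild type and 13.8 in the knock-in, and the summed level was 2315 and 1878 CPM. Gata2 stood at 285, 287, 222 and 111 CPM over the 4 ranges in wild type and at 401, 401, 300 and 183 CPM in the knock-in, and the knock-in value was the higher of the pair in each range. Cd34 went from 96.6 to 15.8 CPM in wild type and from 68.0 to 0 CPM in the knock-in. Klf1 went the other way, from 105 to 222 CPM and from 188 to 292 CPM. Csrp3 stood at 157, 136, 128 and 111 CPM in wild-type cells and at 499, 621, 533 and 292 CPM in knock-in cells. With both libraries weighted to the same shares of cells over these ranges, 60 and 125 genes were at least 2-fold higher and lower, close to the 61 and 118 without weights.

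**Figure D5:**
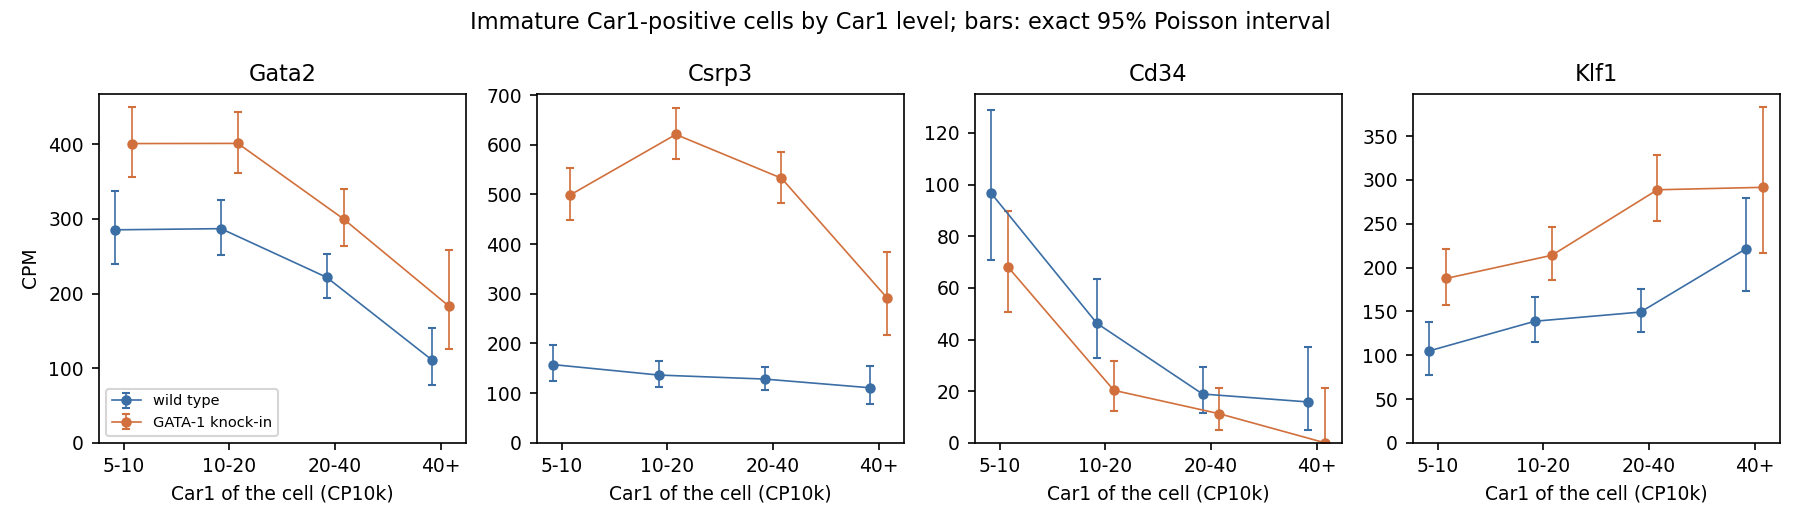
Level (CPM, vertical) of Gata2, Csrp3, Cd34 and Klf1 in immature Car1-positive cells by the cell's own Car1 level (CP10k, horizontal), wild type in blue and knock-in in orange, with exact 95% Poisson intervals. Csrp3 is higher in the knock-in in every range (111 to 157 CPM against 292 to 621 CPM), and Cd34 is lowest at high Car1 in both libraries.

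The end ranges of Car1 differed in the same direction in both libraries for 3 other genes. Sox4 stood at 714 CPM in the lowest and 326 CPM in the highest range of wild type and at 1018 and 234 CPM in the knock-in. Ifitm1 went from 1280 to 465 CPM and from 799 to 51.5 CPM. Car2 went from 659 to 1330 CPM and from 721 to 2121 CPM. Tfrc, the transferrin receptor, stood at 6.30, 14.2, 17.9 and 41.2 CPM over the 4 ranges in wild type but at 29.9, 23.5, 28.8 and 34.3 CPM in the knock-in, on 3 to 23 UMIs each. Since Car1 is part of each cell's UMIs and the knock-in cells are shallower, these are descriptions of cells of 1 library each.

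The members were also set against late Car1-positive cells, which the rule separates from them. The genes named for this were ranked in wild type among those at least 2-fold apart in the same direction in both libraries, so that shared direction is fixed by the choice. Of genes tested, 13.4% were at least 2-fold higher and 9.15% at least 2-fold lower in members than in late cells of wild type, and 11.9% and 8.35% in the knock-in. Vim, the intermediate filament protein vimentin, stood at 598 CPM in members and 8.01 CPM in late cells of wild type and at 896 and 18.0 CPM in the knock-in. Ctla2a (447 against 5.91 CPM and 399 against 6.76 CPM), Rgs1, a regulator of G protein signalling (216 against 2.46 CPM and 205 against 3.28 CPM), and Egr1, an immediate early factor (392 against 6.53 CPM and 358 against 14.6 CPM), were chosen in the same way. Ifitm1 stood at 795 against 17.9 CPM and 543 against 20.1 CPM.

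Genes of the later red cell were low in the members. Sphk1, sphingosine kinase 1, stood at 10.6 CPM in members and 217 CPM in late cells of wild type and at 16.6 and 210 CPM in the knock-in. Cldn13, a claudin of red cell precursors, stood at 9.09 against 182 CPM and 9.83 against 168 CPM. Sptb, the beta chain of spectrin, had 1 UMI in wild-type and 3 UMIs in knock-in members, and Plpp1 had 0 in both. These contrasts describe cells that the rule split by level, with no test.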

How the data were processed

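The deposited values are UMI counts per gene and barcode, made by the authors with Cell Ranger 3.1.0, per the file headers. The genome was mm10, per the submitters' processing notes. A v2 kit is named in the labels, and how barcodes were chosen is not given in the sources used here. Positions and transcript lengths came from GENCODE M21. Cells had at least 500 genes, 2000 UMIs and at most 10% mitochondrial UMIs, and doublets were not removed. Members' UMIs were summed per library and given as CPM. Ratios have exact conditional binomial intervals, shares exact binomial (Clopper-Pearson) and sums exact Poisson intervals, at 95%. Genes needed 50 UMIs over both libraries. For a fold against 0 UMIs, 3 UMIs stood in as the floor. The sums and ratios were tested on simulated data. Python 3.11.15 with numpy 2.4.6, scipy 1.17.1, pandas 2.3.3 and scanpy 1.11.5 was used. The members and the 28 gene lists were chosen with earlier results of these data known. The rule genes are on none of the lists. Free RNA was neither estimated nor removed.

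Genes were named by a rule. It took Gata1, Car1, Gata2, Csrp3 and Cd34, then the 12 in each direction whose intervals lay farthest from a ratio of 1, among genes of 100 UMIs or more in the library with the higher level. It took up to 4 members per list with the most UMIs and list members at least 2-fold apart, and 10 in each direction against late cells. Mitochondrial, ribosomal protein, Y-linked and rule genes were left out of the rankings. Klf1, Zfpm1, Hhex, Meis1, Tfrc, Trnp1, Inpp4b and Hes1 fall outside it and were chosen after their values were seen. Some genes that the rule names are not reported here. In all, 12 alternative settings were tried.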

Additional observations from a re-analysis of the deposited data

How the results depend on the processing

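Of 42 named genes at least 2-fold apart, 41 kept their direction in all alternatives run, and the exception was Cd69, whose log2 ratio of 1.36 was -0.10 among cells with at least 5000 UMIs. Of 27 list medians 13 kept their sign throughout. The count of genes at least 2-fold higher, 61, was 114 with Cpox, Rhd and Ermap up to 5 CP10k, 96 with every cell given equal weight and 1155 with no limit on UMIs, where the count of lower genes, 118, was 1455. The log2 ratio of the shares, 0.49, was 0.31 with thinned cells and 0.19 in cells of at least 5000 UMIs. The causes of the first of these and of the equal weights were not tested, and without a limit many more genes of few UMIs are counted. No paired analysis was possible because there was 1 library per genotype. For the same reason, differences between the libraries and between the genotypes cannot be told apart. Members are shallow cells, so genes of few UMIs, such as Hdc or Klf4, have wide intervals, and free RNA was neither estimated nor removed.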
